A study of Rattus norvegicus with 6 samples.

Results

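The GABA-A receptor genes described here are Gabra2, Gabra3, Gabra4, Gabra5, Gabrg1, Gabrg3 and Gabrd, which code for alpha, gamma and delta subunits of the receptor. They were chosen by symbol from the feature table, and all 7 were found among its 32883 features. Their RNA was counted in single nuclei of the nucleus accumbens shell, a part of the ventral striatum, from Long-Evans rats 90 to 100 days old that had received no treatment named in the labels. There were 6 libraries, 3 from females and 3 from males, and each pooled tissue of 4 same-sex animals. Pools rather than single animals are the replicates. The p-values between sexes measure the spread between pools. Those between classes measure the spread that remains among the class sums after library is taken out as a block. The study compared sexes, and the level of a gene by cell class is the second comparison that single-nucleus libraries allow.

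GABA-A receptors are chloride channels built of 5 subunits, commonly alpha and beta subunits with a gamma or a delta subunit, and they carry most fast inhibition in the brain. The alpha subunit sets the affinity for GABA and, with a gamma subunit, the binding of benzodiazepines. Receptors with alpha4 and delta lie mostly outside synapses, bind GABA tightly, respond to neurosteroids and carry a steady (tonic) inhibition, which in the striatum is known from medium spiny neurons (MSN), its projection neurons. Alpha2 and alpha3 are found mostly at synapses, alpha5 largely outside them, and gamma1 and gamma3 are less widespread gamma subunits.

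Of 41974 barcodes, 34362 nuclei were kept, from 2807 to 14325 in a library, with a median of 3072 to 4822 unique molecular identifiers (UMIs, each standing for 1 captured RNA molecule) per nucleus. Clustering without the GABA receptor genes gave 37 clusters. Marker genes named 13 classes, called "-like" because they rest on markers alone, and 5 further clusters are described by number and leading genes, which made 18 classes and clusters with 27453 nuclei (79.9%). Cluster 7 met the marker rule for eccentric MSN-like nuclei through Otof, Casz1 and Pcdh8 and also raised the D1 markers Drd1, Pdyn and Tac1 and 6 of the 8 general MSN markers. None of the eccentric markers was among its 10 leading genes by fold, which held Foxp2 of the Drd3 MSN list, and cluster 8 raised all 4 eccentric markers but took no name, so cluster 7 is called by its number. The Drd3 cluster is cluster 10: it carried Drd3, Rreb1 and Foxp2 but at most 1 of the 8 general MSN markers was raised in it, so it has no cell type name here. The Kit cluster is cluster 22, with Kit and Pvalb but too few markers for a name. Sst/Npy interneuron-like nuclei were named by Sst, Nos1 and Chodl, while Npy was not raised. D1 MSN-like nuclei were named by Drd1, Pdyn, Tac1 and Isl1, without Ebf1 and Eya1, and also raised Drd3 and Foxp2. None of the D1 markers was among their 10 leading genes. The same held for the Vip/Cck markers in Vip/Cck interneuron-like nuclei, which also raised Pvalb and Kit. The wording of the labels divides the libraries into set A (female pool 3 with male pool 1) and set B (the other 4), and nothing read here says what the sets mean. The labels of set A name combined pre-mRNA tables and those of set B name none, and whether intronic reads were counted in each library is not given. Values often followed these sets. Glutamatergic-like nuclei came almost wholly from set A (1933 of 1935 nuclei), and female pool 2 had the largest share of barcodes over the mitochondrial limit, 40.7%. Pairs of libraries shared 3 to 52 barcodes.

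Levels are given as CPM, the UMIs of a gene scaled to a total of 1000000 in 1 class of 1 library, as mean ± SD over the libraries with at least 20 nuclei of the class. Where values are listed by library they run from pool 1 to pool 3 of each sex. Since 3' counts are not corrected for gene length, levels are compared between classes for 1 gene, not between genes. Over the kept nuclei Gabra2 had 62691 UMIs, Gabra3 21056, Gabra4 72713, Gabra5 7486, Gabrg1 17085, Gabrg3 472841 and Gabrd 4996. Counting error relative to the level was therefore largest for Gabrd and Gabra5. The standard errors of the fits did not always follow this order. Between D1 and D2 MSN-like nuclei they were 0.09 for Gabrd and 0.10 for Gabra5 on the log2 scale, against 0.33 for Gabrg3.

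**Figure D1:**
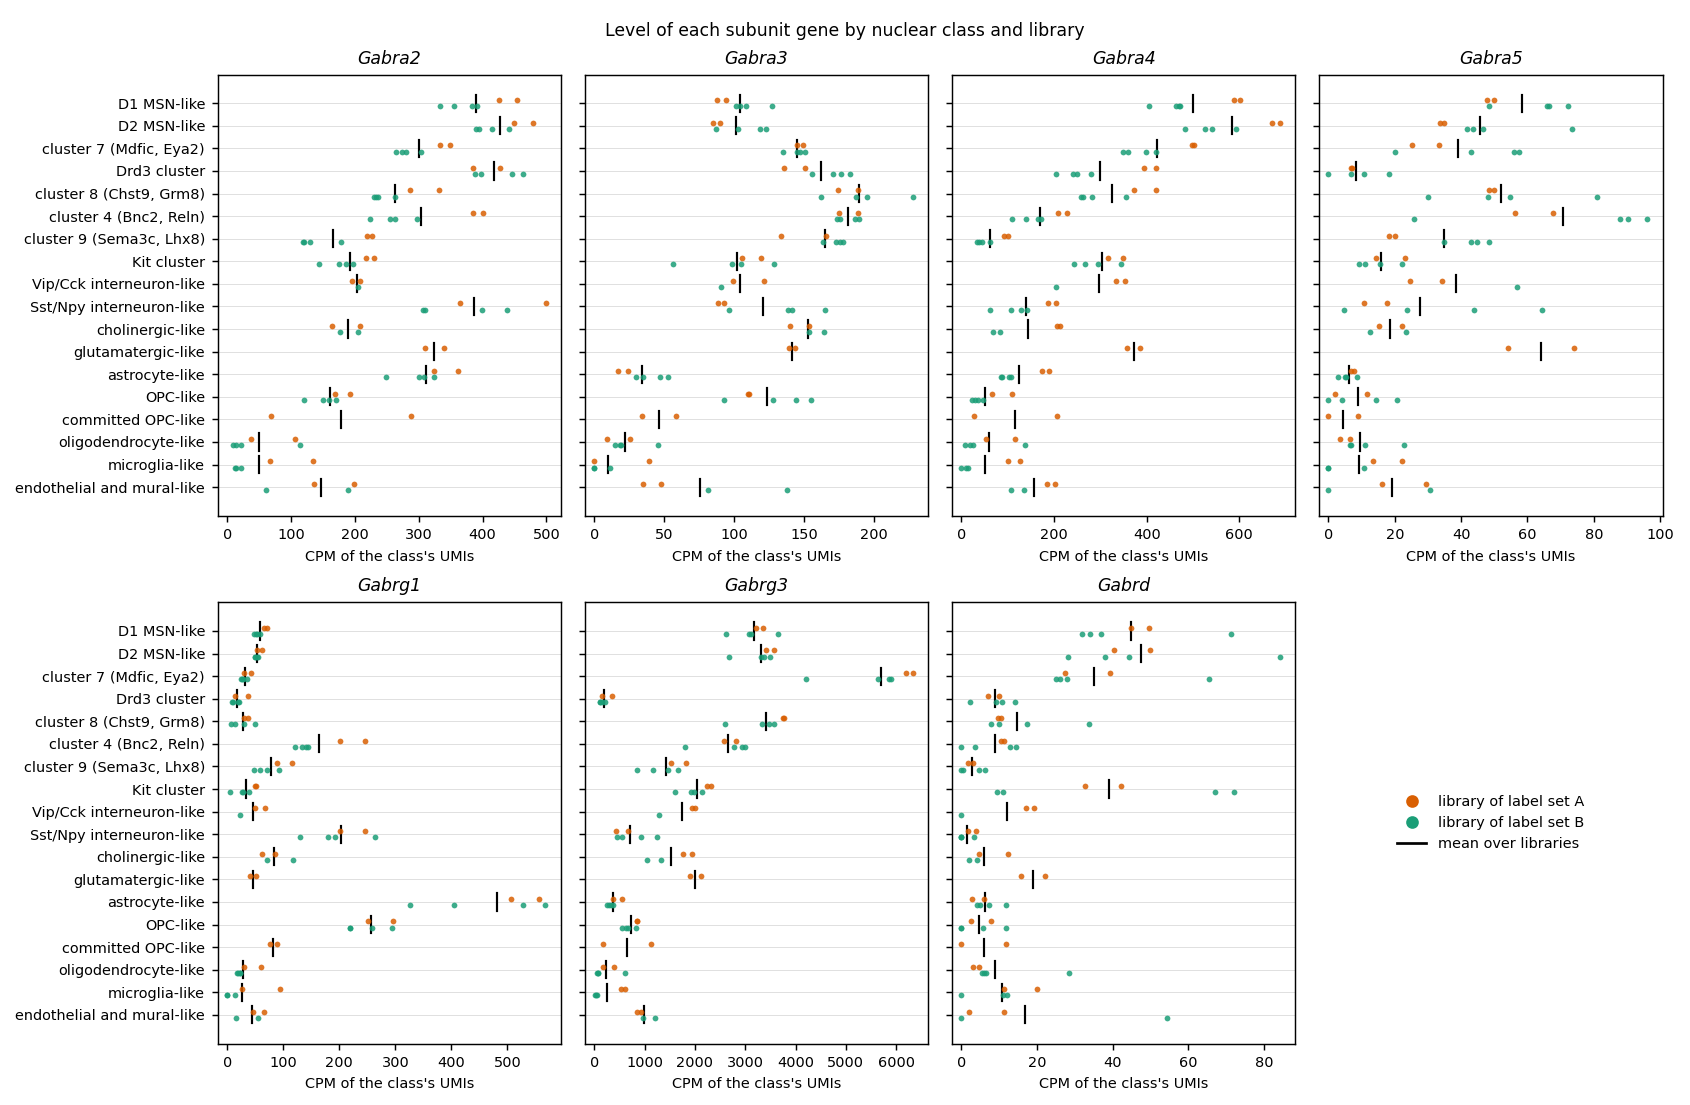
Level of each subunit gene (CPM, x axis) in the 18 classes and clusters (y axis), with 1 point per library coloured by label set and a bar at the mean. By the mean, Gabra4 and Gabrd lie furthest right in D1 and D2 MSN-like nuclei, Gabrg3 in cluster 7 and Gabrg1 in astrocyte-like nuclei.

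Among the alpha subunits, Gabra2 was highest in D2 MSN-like nuclei (428 ± 34.4 CPM, SD, n = 6), followed by the Drd3 cluster (418 ± 32.9, n = 6), D1 MSN-like nuclei (390.4 ± 44.4, n = 6) and Sst/Npy interneuron-like nuclei (386 ± 75.2, n = 6). These 4 did not differ from their neighbours in the order beyond the larger SD. Astrocyte-like nuclei stood next among classes found in at least 3 libraries, at 311 ± 37.3 CPM (n = 6), while microglia-like nuclei were lowest (49.6 ± 52.1, n = 5). Of 15 pairs of neighbours in the order of the 16 classes with at least 3 libraries, 13 lay within the larger SD.

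Gabra3 had another order. It was highest in cluster 8, whose leading genes were Chst9 and Col14a1 (189 ± 22.3 CPM, n = 6), and in cluster 4, led by Bnc2 and Reln (182 ± 7.51, n = 6). The Drd3 cluster (162 ± 17.9, n = 6) and cholinergic-like nuclei (153 ± 9.89, n = 4) lay above D1 (104 ± 13.7) and D2 (101 ± 16.3) MSN-like nuclei. All 15 neighbouring pairs lay within the larger SD, so the order is a gradual slope down to microglia-like nuclei (9.99 ± 16.9, n = 5).

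Gabra4, the alpha subunit that pairs with delta outside synapses, was highest in D2 MSN-like nuclei (584 ± 82.1 CPM), D1 MSN-like nuclei (499.8 ± 77.9) and cluster 7 (421 ± 66.2, n = 6 each). Among classes with at least 3 libraries, each of these 3 differed from the next in the order by more than the larger SD. Glutamatergic-like nuclei, with 2 libraries, lay between cluster 7 and cluster 8 at 372 ± 19.2 CPM. Cluster 8 (325 ± 67.2), the Kit cluster (302 ± 42.4), the Drd3 cluster (298 ± 88.4, n = 6 each) and Vip/Cck interneuron-like nuclei (297 ± 80.5, n = 3) formed a group without such gaps. Sst/Npy interneuron-like (139 ± 52.4, n = 6), cholinergic-like (143 ± 77.1, n = 4) and astrocyte-like nuclei (124 ± 45.5, n = 6) were lower. OPC-like nuclei, which carry markers of oligodendrocyte precursor cells, had 51.8 ± 31.4 CPM (n = 6).

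Gabra5 was highest in cluster 4 (70.7 ± 26.7 CPM), but all 15 neighbouring pairs in its order lay within the larger SD. D1 MSN-like nuclei had 58.5 ± 10.9 CPM, cluster 8 had 52.1 ± 16.5 and D2 MSN-like nuclei had 45.6 ± 14.5 (n = 6 each). At the other end the Drd3 cluster had 8.30 ± 6.01 CPM from 33 UMIs in all, no more than astrocyte-like nuclei (6.07 ± 2.09) beyond its SD.

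Gabrg1 was the member highest in glia. Astrocyte-like nuclei had 482 ± 95.6 CPM, OPC-like nuclei 256 ± 33.8 and Sst/Npy interneuron-like nuclei 202 ± 48.3 (n = 6 each). Cluster 4 followed at 165 ± 48.3, and after a gap larger than the SD cholinergic-like nuclei had 83.8 ± 24.9 (n = 4). D1 (57.6 ± 9.05) and D2 (53.6 ± 4.33) MSN-like nuclei lay near the middle of the order. The Drd3 cluster was lowest, at 18.2 ± 10.4 CPM.

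Gabrg3, the other gamma subunit gene, reached 5688 ± 767 CPM in cluster 7. Cluster 8 (3414 ± 435), D2 (3304 ± 319) and D1 (3169 ± 338) MSN-like nuclei came next without gaps beyond the SD. The Drd3 cluster was at the bottom of the order with 183 ± 91.7 CPM, beside oligodendrocyte-like (230.5 ± 225) and microglia-like nuclei (247 ± 294, n = 5).

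Gabrd, coding for the delta subunit, was highest in D2 (47.4 ± 19.4 CPM) and D1 (44.8 ± 14.5) MSN-like nuclei, the Kit cluster (39.0 ± 26.8) and cluster 7 (35.2 ± 15.7, n = 6 each). All 15 neighbouring pairs in its order lay within the larger SD. Female pool 2 was the highest library in D2 MSN-like nuclei, D1 MSN-like nuclei and cluster 7, with 84.1, 71.1 and 65.5 CPM. That pool also had the largest share of barcodes over the mitochondrial limit, and the part of RNA quality in these values was not tested. The lowest class was Sst/Npy interneuron-like, at 1.49 ± 1.76 CPM from 5 UMIs, with 3 of the 6 libraries at 0.

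The promoters of Gabra4 and Gabrd are shown because both genes were highest in D1 and D2 MSN-like nuclei, and that of Gabrg1 because that gene was highest in astrocyte-like nuclei. They come from RefSeq on the build GRCr8, a build other than that of the counts (rn6), and run 5′ to 3′ on the gene's strand from 250 bases before the start to 50 bases after it. Capitals mark CG pairs. The Gabra4 promoter lies at chr14:36944497-36944796 on the plus strand, that of Gabrd at chr5:171252660-171252959 on the minus strand and that of Gabrg1 at chr14:37750042-37750341 on the plus strand.
Gabra4: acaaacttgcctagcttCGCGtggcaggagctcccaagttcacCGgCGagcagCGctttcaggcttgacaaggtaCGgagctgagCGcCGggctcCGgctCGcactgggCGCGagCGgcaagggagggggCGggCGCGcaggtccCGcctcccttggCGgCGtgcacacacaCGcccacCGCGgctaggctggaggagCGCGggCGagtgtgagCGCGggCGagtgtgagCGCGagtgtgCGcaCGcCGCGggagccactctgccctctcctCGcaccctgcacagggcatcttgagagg
Gabrd: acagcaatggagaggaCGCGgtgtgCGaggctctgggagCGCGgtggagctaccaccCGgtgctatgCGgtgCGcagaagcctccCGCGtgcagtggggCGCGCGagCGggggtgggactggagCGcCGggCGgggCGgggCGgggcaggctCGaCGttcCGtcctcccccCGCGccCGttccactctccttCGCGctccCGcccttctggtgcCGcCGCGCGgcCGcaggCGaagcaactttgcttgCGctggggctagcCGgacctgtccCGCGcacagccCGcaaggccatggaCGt
Gabrg1: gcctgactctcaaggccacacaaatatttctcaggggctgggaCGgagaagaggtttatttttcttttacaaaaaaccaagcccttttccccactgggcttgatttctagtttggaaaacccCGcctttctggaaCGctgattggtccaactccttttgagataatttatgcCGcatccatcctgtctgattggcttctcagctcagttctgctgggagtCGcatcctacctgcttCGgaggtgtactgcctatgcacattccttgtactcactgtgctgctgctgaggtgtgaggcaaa

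These windows held 35 CG pairs in Gabra4, 40 in Gabrd and 6 in Gabrg1, against a median of 7 over 33469 promoters of 300 bases. Of all promoters, 6.13% held at least as many as Gabra4 and 3.24% at least as many as Gabrd, while 48.6% held no more than Gabrg1. Of the other members, Gabra5 had 42 CG pairs, Gabrg3 37 and Gabra3 none. The letters GGGCGG, searched on both strands, were in the windows of Gabra4, Gabra5, Gabrg3 and Gabrd and in 33.1% of all promoters, and TATAAA, searched on both strands, was in that of Gabra3 and in 14.2% of all. Promoters were found for 6 of the 7 members. These are counts of letters in a window and not sites.

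D1 and D2 MSN-like nuclei, whose namesakes are the projection neurons of the direct and indirect pathways, differed little in these genes, and Gabra5 was the exception that passed the test. In D1 MSN-like nuclei Gabra5 had 72.3, 48.4 and 47.9 CPM in females and 50.0, 66.6 and 65.9 in males. In D2 MSN-like nuclei it had 73.3, 41.8 and 34.7 CPM in the female pools and 33.7, 46.7 and 43.6 in the male pools. D1 was the higher class in 5 of 6 libraries, female pool 1 being the exception, and the ranges overlapped. The log2 fold change was 0.38 ± 0.10 (SE), with an adjusted p of 0.0081 by edgeR's quasi-likelihood test with library as a block and Benjamini-Hochberg adjustment over all genes, the test used throughout with a threshold of 0.05. This call was lost without male pool 1 (log2 0.33), without female pool 3 (0.36), in DESeq2 (0.38), without the library block (0.36) and within label set B (0.30).

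Gabra4 went the other way without passing. It had 471, 471 and 588 CPM in D1 MSN-like nuclei of females and 602, 463 and 404 in males, against 593, 526 and 672 and 687, 541 and 483 in D2 MSN-like nuclei. D1 was the lower class in 6 of 6 libraries, and the 2 set A libraries were the highest in both classes. The log2 difference was -0.23 ± 0.19 (adjusted p = 0.786, edgeR), and for Gabra2, also lower in D1 in 6 of 6 libraries, it was -0.13 ± 0.19 (adjusted p = 0.924, edgeR). Counted over the members, 1 of 7 was called here, where 5.62% of 13502 genes were called, and the median absolute log2 fold change was 0.11 for the members and 0.10 for all genes.

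In that fit every class shared 1 trend of spread. In a fit with D1 and D2 MSN-like nuclei only, chosen after seeing the data, 16.4% of genes and 4 of 7 members were called. Gabra5 was higher in D1 (log2 0.38 ± 0.07, adjusted p = 6.35e-06, edgeR), and Gabra4 (-0.23 ± 0.03), Gabra2 (-0.13 ± 0.03) and Gabrg3 (-0.07 ± 0.02) were lower. The sizes were nearly those of the fit over all classes, and the standard errors were smaller. Gabra3, Gabrg1 and Gabrd were called in neither fit.

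**Figure D2:**
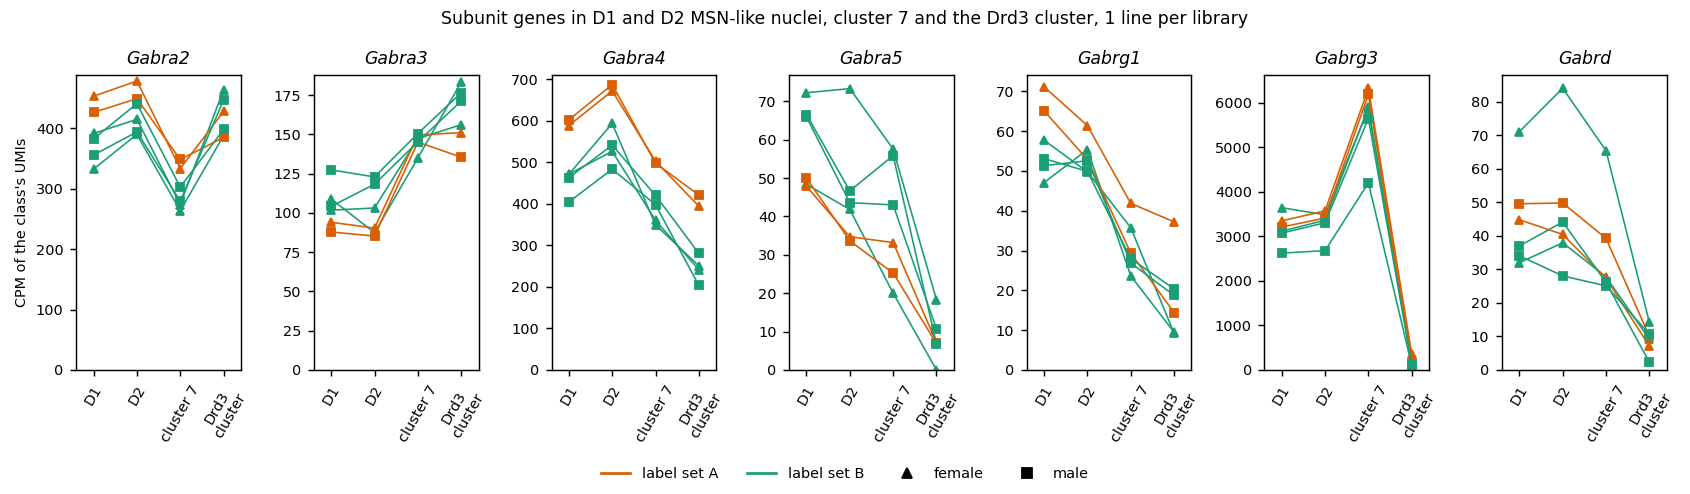
Level of each subunit gene (CPM, y axis) in D1 and D2 MSN-like nuclei, cluster 7 and the Drd3 cluster (x axis), with 1 line per library, coloured by label set and with a marker for sex. In each library Gabrg3 peaked in cluster 7 and was lowest in the Drd3 cluster, while the line of female pool 2 lies above the others for Gabrd.

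Cluster 7, with both eccentric and D1 MSN markers, had more Gabra3 and less of 4 other members than the mean of D1 and D2 MSN-like nuclei. Gabra3 had 135, 147 and 149.6 CPM in females and 145, 151 and 145 in males, all above the range of the D1 and D2 mean. Its log2 fold change was 0.49 ± 0.09 (adjusted p = 8.96e-06, edgeR). Gabrg1 was lower by 0.93 ± 0.16 on the log2 scale, with 30.9 ± 6.68 CPM in cluster 7 against a mean of 55.6 and no overlap of libraries (adjusted p = 3.16e-06, edgeR). Gabrd (-0.52 ± 0.11), Gabra2 (-0.53 ± 0.17) and Gabra5 (-0.47 ± 0.13) were also lower, in 6, 6 and 5 of 6 libraries. In all, 5 of 7 members were called against 18.8% of genes, with a median absolute log2 fold change of 0.52 for the members and 0.19 for all genes. The call of Gabra2 was lost without male pool 1, 2 or 3 or female pool 2 (log2 -0.51 to -0.53), within label set A (-0.46) and without the low-count filter (-0.53). That of Gabra5 was lost without male pool 1 (-0.35) and within label set B (-0.38). DESeq2 called 2 of the 7, Gabra3 and Gabrg1, and without the library block Gabrg1 alone was called.

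Gabrg3 did not pass the threshold in this comparison, although its levels did not overlap. Cluster 7 had 5866, 5897 and 6324 CPM in females and 6190.3, 5647 and 4202 in males. Male pool 3 was the lowest library here as in D1 (2623) and D2 (2679.9) MSN-like nuclei, and no library of cluster 7 overlapped the D1 and D2 means. The log2 fold change was 0.72 ± 0.28 (adjusted p = 0.0667, edgeR), with cluster 7 higher in 6 of 6 libraries. In the fit of these 3 groups only, where 30.0% of genes were called, Gabrg3 was higher by 0.78 ± 0.03 (adjusted p = 1.17e-29, edgeR), Gabra4 was lower (-0.39 ± 0.04), and all 7 members were called.

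The Drd3 cluster had less of 5 members than the D1 and D2 mean and more Gabra3. Gabrg3 had 208, 156 and 355 CPM in females and 158, 118 and 104 in males, below each D1 and D2 library, the lowest of which had 2623. The fitted difference was 20.1-fold (log2 -4.33 ± 0.34, adjusted p = 2.06e-16, edgeR). Gabra5 (-2.69 ± 0.23), Gabrd (-2.52 ± 0.21), Gabrg1 (-1.61 ± 0.21) and Gabra4 (-1.01 ± 0.18) were lower as well. Each of these was lower in 6 of 6 libraries, and ranges overlapped for Gabra4 alone of the 5. Gabra3 was higher, with 183, 156 and 151 CPM in the female pools and 135, 176 and 171 in the male pools (0.54 ± 0.12, adjusted p = 7.72e-05, edgeR), and Gabra2 was not called (-0.11 ± 0.16, adjusted p = 0.637, edgeR). That gave 6 of 7 members called against 40.9% of genes, and a median absolute log2 fold change of 1.61 for the members and 0.39 for all genes. Nuclei of the Drd3 cluster were shallower, with a median of 2740 UMIs against 5477 and 5234 in D1 and D2 MSN-like nuclei.

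**Figure D3:**
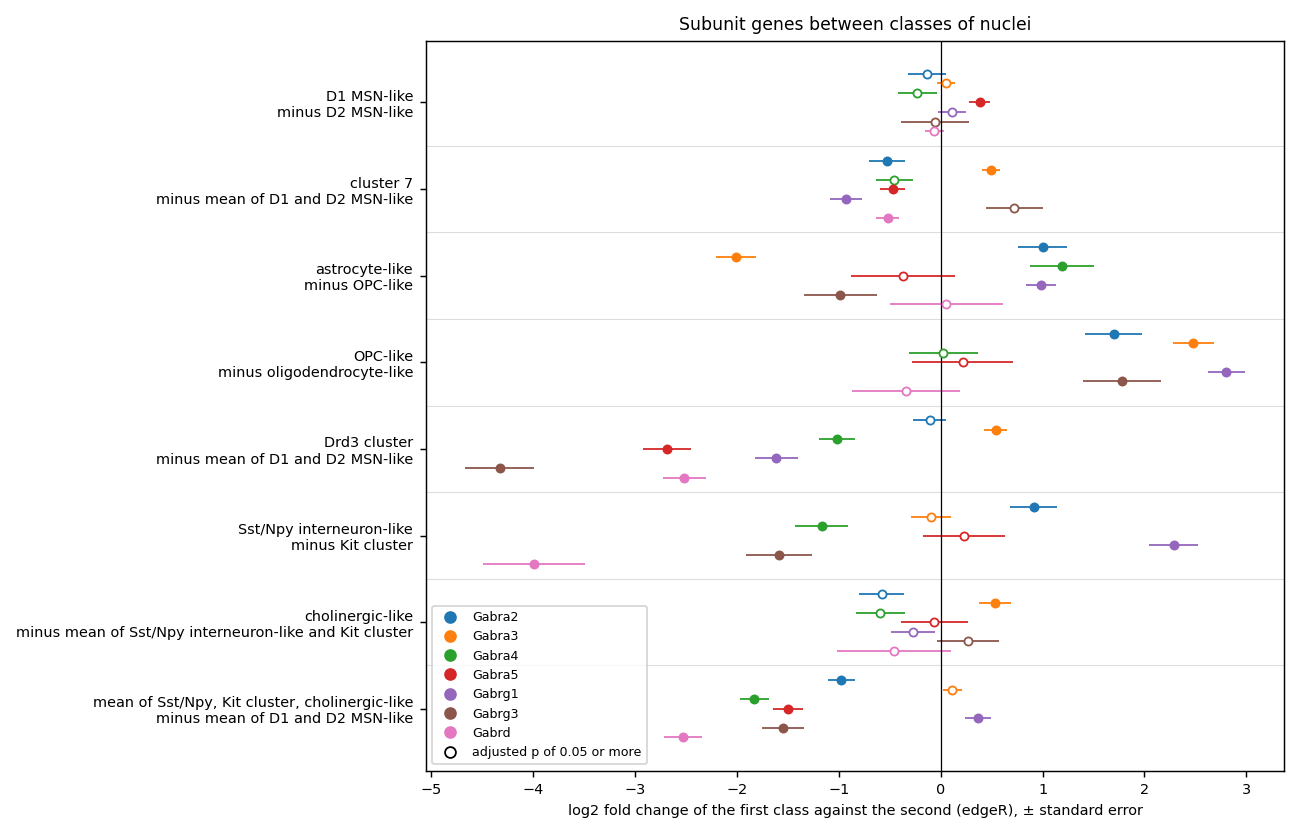
Log2 fold change of each subunit gene between classes (x axis, edgeR, ± standard error) in 8 comparisons (y axis), with open circles for an adjusted p of 0.05 or more. The lowest value is that of Gabrg3 in the Drd3 cluster and the highest that of Gabrg1 in OPC-like against oligodendrocyte-like nuclei.

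Against the mean of D1 and D2 MSN-like nuclei, the mean of Sst/Npy interneuron-like nuclei, the Kit cluster and cholinergic-like nuclei had less Gabrd (log2 -2.53 ± 0.18), Gabra4 (-1.83 ± 0.14), Gabrg3 (-1.55 ± 0.20), Gabra5 (-1.50 ± 0.15) and Gabra2 (-0.98 ± 0.13). The direction held in 4 of 4 libraries with all 3 classes for each of these. Gabrg1 was higher (0.37 ± 0.13, adjusted p = 0.0137, edgeR), a call lost without male pool 1 (0.29), without the low-count filter (0.30), without the library block (0.44) and within label sets A (0.39) and B (0.37). Gabra3 was not called (0.11 ± 0.10), but was without male pool 2 (0.21), in DESeq2 (0.23), with RLE scaling (0.23) and with only the compared classes in the fit (0.17). In all, 6 of 7 members were called against 48.0% of genes. The mean covers unlike groups. Gabrg1 was above D1 and D2 MSN-like nuclei in Sst/Npy interneuron-like nuclei (202 ± 48.3 CPM) and below them in the Kit cluster (33.2 ± 17.3). Gabra2 in Sst/Npy interneuron-like nuclei and Gabrd in the Kit cluster lay within the larger SD of D1 MSN-like nuclei. Vip/Cck interneuron-like nuclei, with enough nuclei in 3 libraries, were not part of the mean.

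Sst/Npy interneuron-like nuclei had more Gabrg1 and Gabra2 than the Kit cluster and less Gabrd, Gabrg3 and Gabra4. Sst/Npy interneuron-like nuclei, whose namesakes release somatostatin and neuropeptide Y, had Gabrg1 at 179, 129.7 and 246 CPM in females and 202, 192 and 264 in males. The Kit cluster had 38.2, 25.7 and 51.8 in the female pools and 49.9, 5.54 and 28.0 in the male pools, well below each Sst/Npy library. The log2 fold change was 2.29 ± 0.24 (adjusted p = 2.65e-12, edgeR), and Gabra2 was higher in the same direction (0.91 ± 0.23, adjusted p = 0.0029, edgeR) in 6 of 6 libraries without overlap, a call lost within label set A (0.86).

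Gabrd was the reverse, with 10.9, 66.9 and 32.5 CPM in the Kit cluster of females and 42.2, 72.1 and 9.33 in males, from 78 UMIs. In Sst/Npy interneuron-like nuclei no library exceeded 3.77 CPM. The fitted log2 fold change was -3.99 ± 0.50 (adjusted p = 2.77e-10, edgeR), and its size rests on 5 UMIs in the lower class. In a fit of only the classes compared, Gabrd did not pass the low-count filter and was not tested. Gabrg3 (-1.59 ± 0.33) and Gabra4 (-1.17 ± 0.26) were lower in Sst/Npy interneuron-like nuclei in 6 of 6 libraries, and Gabra3 and Gabra5 were not called. With Gabrd included, 5 of 7 members were called in the fit over all classes, against 15.7% of genes. The call of Gabra4 was lost at a mitochondrial limit of 2% (-0.92).

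Cholinergic-like nuclei, set against the mean of those 2 groups in the 4 libraries with enough nuclei, had more Gabra3. Its level was 154 CPM in female pools 1 and 3, 140.1 in male pool 1 and 164 in male pool 3, and the log2 fold change was 0.53 ± 0.16 (adjusted p = 0.0108, edgeR), higher in 4 of 4 libraries with overlapping ranges. The other 6 members were not called, against 17.4% of genes called, with Gabra2 at -0.58 ± 0.22 and Gabra4 at -0.59 ± 0.24. The call of Gabra3 was lost without the library block (0.50) and within label set B (0.54), where Gabra4 was called instead (-1.20, against -0.33 within label set A). Gabra2 was called without female pool 1 (-0.66). In the fit of these 3 groups only, where 25.3% of genes were called, Gabra2 (-0.64 ± 0.13) and Gabra4 (-0.62 ± 0.20) were lower.

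Among glia, astrocyte-like nuclei had more Gabra2, Gabra4 and Gabrg1 than OPC-like nuclei and less Gabra3 and Gabrg3. Gabrg1 had 405, 327 and 507 CPM in astrocyte-like nuclei of females and 557, 568 and 528 in males, against 219.6, 218 and 252 and 295, 258 and 293 in OPC-like nuclei. Every astrocyte-like library lay above every OPC-like library (log2 0.98 ± 0.15, adjusted p = 5.8e-08, edgeR). Gabra3 was lower by 2.01 ± 0.19 on the log2 scale, at 34.0 ± 13.6 against 123 ± 23.4 CPM without overlap (adjusted p = 4.99e-14, edgeR). Gabra2 (311 ± 37.3 against 160.3 ± 24.0 CPM, adjusted p = 7.6e-04, edgeR) and Gabra4 (log2 1.19 ± 0.31) were higher in 6 of 6 libraries. Gabrg3 was lower (-0.99 ± 0.36, adjusted p = 0.0268, edgeR), a call lost without any 1 of the male pools (-0.88 to -0.97), without the low-count filter (-0.88), at a mitochondrial limit of 2% (-0.77), without the library block (-0.95) and within label sets A (-0.80) and B (-0.98). Thus 5 of 7 members were called against 36.3% of genes.

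OPC-like nuclei in turn had more of 4 members than oligodendrocyte-like nuclei, the myelinating end of that lineage. The log2 fold changes were 2.81 ± 0.19 for Gabrg1, 2.48 ± 0.20 for Gabra3, 1.78 ± 0.38 for Gabrg3 and 1.70 ± 0.28 for Gabra2, each in 6 of 6 libraries. Gabra4 (0.03 ± 0.34), Gabra5 (0.21 ± 0.49) and Gabrd (-0.34 ± 0.53) were not called. Of all genes, 41.9% were called in this comparison.

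Free RNA can put UMIs of neuronal genes into glial nuclei, and the glial levels moved with the label sets. In microglia-like nuclei the mean level of Gabrg3 was 567 CPM in set A and 33.6 in set B, that of Gabra4 113 and 8.30, that of Gabra2 100.2 and 15.9, and that of Gabrg1 60.7 and 4.68. For these 4 genes no set B library reached a set A library. In astrocyte-like nuclei Gabra4 was at 174 and 189 CPM in set A and 85.1 to 108 in set B, while Gabra3 was lower in set A (16.8 and 23.9) than in set B (29.7 to 52.5). The part of free RNA in the glial differences was not tested. Gabrg1 in astrocyte-like nuclei had overlapping sets, at 532 CPM in set A and 457 in set B, and both means exceeded those in D1 and D2 MSN-like nuclei.

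**Figure D4:**
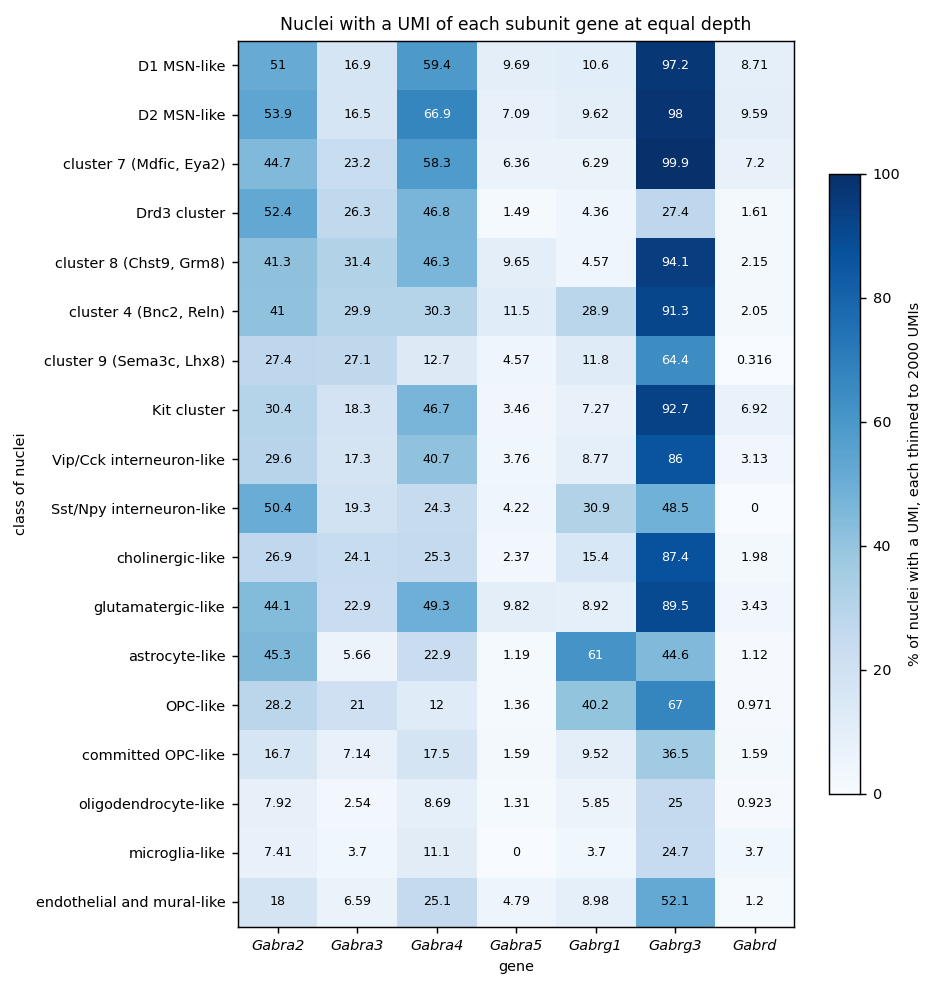
Share of nuclei with at least 1 UMI of each subunit gene (columns, percent, colour and number) in each class (rows), after each nucleus was thinned to 2000 UMIs. Gabrg3 was seen in nearly all MSN-like nuclei and in 27.4% of the Drd3 cluster, and Gabrg1 in 61.0% of astrocyte-like nuclei.

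Shares of nuclei with a UMI depend on depth, so each nucleus was thinned at random to 2000 UMIs and shallower nuclei were left out (182 of 5155 D1 MSN-like, 333 of 1204 in the Drd3 cluster and 2168 of 3468 oligodendrocyte-like). Exact 95% binomial intervals cover counting error only. Gabrg3 was seen in 97.2% of D1, 98.0% of D2 MSN-like nuclei and 99.9% of cluster 7. In the Drd3 cluster its share was 27.4% (24.5 to 30.5), close to that in oligodendrocyte-like nuclei (25.0%, 22.7 to 27.4). Without thinning these last shares were 36.3% at a median of 2740 UMIs and 26.0% at a median of 1712. Against microglia-like nuclei the order of Gabrg3 levels depended on the label set. In set B the Drd3 cluster had 104 to 208 CPM and microglia-like nuclei at most 56.1. In set A the Drd3 cluster had 158 and 355 CPM and microglia-like nuclei 532 and 603. The part of background in the Gabrg3 UMIs of the Drd3 cluster was not tested.

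The share for Gabrd at equal depth was 9.59% (8.64 to 10.6) in D2 MSN-like, 8.71% (7.94 to 9.53) in D1 MSN-like nuclei, 7.20% (5.96 to 8.60) in cluster 7 and 6.92% (4.28 to 10.5) in the Kit cluster. In oligodendrocyte-like nuclei it was 0.923% (0.478 to 1.61). Among Sst/Npy interneuron-like nuclei it was seen in 0 of 379, which allows a share of up to 0.792% by a limit of 3 counts and 0.969% by the exact interval, at 2000 UMIs only. Unthinned, the shares were 23.0% of D1 and 22.6% of D2 MSN-like nuclei and 1.23% of Sst/Npy interneuron-like nuclei. Gabrg1 was seen in 61.0% (58.3 to 63.6) of astrocyte-like, 40.2% (35.9 to 44.6) of OPC-like and 30.9% (26.3 to 35.8) of Sst/Npy interneuron-like nuclei, against 5.85% (4.63 to 7.26) in oligodendrocyte-like nuclei.

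Gabra4 and Gabrd were seen together in 267 D1 MSN-like nuclei at 2000 UMIs, where independent shares within each library gave 260, a ratio of 1.03 (0.91 to 1.19 over libraries). In D2 MSN-like nuclei the counts were 231 and 229, a ratio of 1.01 (0.59 to 1.24). Gabra2 with Gabra4 had a ratio of 1.02 in D1 and 1.01 in D2 MSN-like nuclei. Gabra4 with Gabrg1 had 0.89 in D1, under 1 in each library (0.74 to 0.93), and 1.07 in D2 (0.998 to 1.23). Gabra3 with Gabrd lay further from 1 in D2 MSN-like nuclei, at 40 nuclei against 56.6 (0.71, 0 to 0.86 over libraries), with 1.01 in D1. Gabrg1 with Gabrd lay further still in D2, at 22 against 33.4 (0.66, 0.27 to 1.66), and had 0.73 in D1 (0.32 to 1.08). In cluster 7 Gabra3 with Gabra5 had 34 against 22.7, with a ratio of 0.84 to 2.99 over libraries. Each of these is a description, since nuclei of 1 pool are not replicates. The pairs named were picked from all pairs of the 7 members, some of them because their ratios lay away from 1. Ratios were taken in D1 and D2 MSN-like nuclei, cluster 7, astrocyte-like and OPC-like nuclei, and no allowance was made for their number.

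Levels in neurons also differed between the label sets. Gabra4 in D1 MSN-like nuclei was 588 and 602 CPM in set A and 404 to 471 in set B, and the sets did not overlap for Gabra2 either (426 and 453 against 333 to 392). Gabra3 went the other way, at 94.0 and 87.8 CPM in set A and 102 to 127 in set B. Each set holds both sexes, and class comparisons were made within library.

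Females and males were compared in 12 classes and over all nuclei with the label set as a term. Over all nuclei no member differed: Gabrg3 had 2673 ± 229 CPM in females and 2342 ± 425 in males (SD, n = 3 each, log2 0.25 ± 0.22, adjusted p = 0.733, edgeR), and the other 6 had an adjusted p of at least 0.803. Of 75 tests of members across the classes and all nuclei, 1 was called and 4 had an unadjusted p under 0.05, while 0.0724% of 118767 gene tests were called. DESeq2 called 0 of them. The called test was Gabrg3 in the Drd3 cluster, with 208, 156 and 355 CPM in females and 158, 118 and 104 in males, so that the ranges overlapped. The log2 fold change of females against males was 0.92 ± 0.19 (adjusted p = 0.0332, edgeR), 1.16 within set A and 0.71 within set B. The call was lost without male pool 1 (0.70), female pool 3 (0.70) or female pool 1 (0.87), in DESeq2 (0.89), at Leiden resolution 0.5 (0.69) and without the label set as a term (0.91). In oligodendrocyte-like nuclei Gabrg3 had 69.2, 608 and 401 CPM in females and 163, 60.6 and 81.0 in males, above the Drd3 cluster of the same pool in 3 of 6 libraries. The part of free RNA in this call was not tested.

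In astrocyte-like nuclei Gabrg1 had 405, 327 and 507 CPM in females and 557, 568 and 528 in males, which did not overlap. The log2 fold change was -0.43 ± 0.17 and did not pass (adjusted p = 0.957, edgeR), with -0.14 within set A and -0.58 within set B. OPC-like nuclei had 230 ± 19.1 CPM in females and 282 ± 21.0 in males, also without overlap and without a call (log2 -0.29 ± 0.18, adjusted p = 0.987, edgeR). With 3 pools per sex ranges can separate by chance, and the share of all genes whose ranges did was not counted. Gabrg3 in astrocyte-like nuclei went the other way, with 422 ± 119 CPM in females and 306 ± 67.3 in males. Its ranges overlapped and it was not called (log2 0.445 ± 0.162, adjusted p = 0.957, edgeR).

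Other genes of GABA signalling were read from 6 lists with 34 genes: further GABA-A subunits, receptor partners such as the anchoring protein gene Gphn, GABA synthesis and transport, GABA-B receptors, chloride transporters and neurosteroid synthesis. Between D1 and D2 MSN-like nuclei 1 of 25 tested was higher, Slc12a2 (log2 0.57 ± 0.09), the transporter that loads cells with chloride, and 0 were lower. Of all genes, 5.62% were called there. In cluster 7 against the D1 and D2 mean, 4 of 25 were higher and 6 lower, against 18.8% of all genes called. The lower ones included the beta subunit genes Gabrb2 (-0.84 ± 0.20) and Gabrb1 (-0.59 ± 0.22), beside both chloride transporters. The higher ones were Gabbr2 (0.88 ± 0.11), Slc32a1 (0.52 ± 0.11), Rdx (0.51 ± 0.14) and Gphn (0.29 ± 0.10).

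In the Drd3 cluster 6 of 26 tested genes of these lists were higher and 7 lower, against 40.9% of all genes called. The beta subunit gene Gabrb1 was not called (0.31 ± 0.19). Rdx, coding for radixin, which anchors alpha5 receptors to the cytoskeleton, was higher (1.505 ± 0.149). In Sst/Npy interneuron-like nuclei against the Kit cluster, 2 of 26 were higher, Gabrb1 (1.54 ± 0.25) and Gabbr2 (0.69 ± 0.15), and 7 lower, 5 of them in the list of GABA synthesis and transport. Of all genes, 15.7% were called there.

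Astrocyte-like nuclei had 8 of 25 genes higher and 9 lower than OPC-like nuclei, against 36.3% of all genes called. Gabrb1 (3.27 ± 0.28) and the astrocytic GABA transporter gene Slc6a11 (4.30 ± 0.16) were higher, and Gabrb2 (-1.41 ± 0.31) was lower. OPC-like against oligodendrocyte-like nuclei had 13 of 25 higher and 5 lower, against 41.9% of all genes called. For cholinergic-like nuclei 4 of 26 were higher and 10 lower, against 17.4% of all genes. For the mean of Sst/Npy interneuron-like nuclei, the Kit cluster and cholinergic-like nuclei against D1 and D2 MSN-like nuclei 3 of 26 were higher and 14 lower. Of all genes, 48.0% were called in that comparison. Over these lists the median log2 fold change was between -0.34 and 0.48 in the 8 comparisons, against -0.08 to 0.05 for all genes tested.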

How the data were processed

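The deposited matrices hold raw UMI counts, made with Cell Ranger 4.0.0 per the file headers, on the build rn6 per the submitters' processing notes. The shell was punched from frozen slices of 200 µm and its nuclei taken through the 10x Genomics 3' kit with 11 amplification cycles, per the labels. Kept nuclei had 500 UMIs or more, 300 genes or more and a mitochondrial share under 5%. Within each library the nuclei with the highest Scrublet scores were removed as doublets, 0.8% per 1000 nuclei, because Scrublet's own thresholds marked 0% to 4.81%. The kept libraries held 10776831 to 77638150 UMIs.

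Clusters (scanpy 1.11.5; 3000 variable genes, 30 components, 20 neighbours, Leiden resolution 1) were made without 70 genes, the GABA signalling genes among them, and named by at least 3 raised markers. The remaining 6909 nuclei, in clusters with markers of several lists, high doublet scores or few nuclei, are not described. Counts were summed per library and class with at least 20 nuclei and tested with edgeR 4.0.16 (TMM, filterByExpr, quasi-likelihood). The standard errors given were derived from the test, as the absolute log2 fold change divided by the square root of its F statistic. Class comparisons had library as a block, and sex fits had the label set as a term. Shares used nuclei thinned to 2000 UMIs. The scripts' fits were tested on simulated data.

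The members and lists were chosen with earlier results of these data known. No cluster took the names Drd3 MSN-like or Pvalb/Pthlh interneuron-like, so cluster 10 and cluster 22 stood in their place, chosen after seeing the clusters. All 7 members are named in each comparison, and other genes from the lists only where a value was needed. Some genes of the lists are not reported here. Alternatives were RLE scaling, DESeq2 1.42.0, no low-count filter, 1000 UMIs, a 2% mitochondrial limit, Leiden resolution 0.5, each library left out, label sets, no block, and only the compared classes in a fit. Replicate numbers do not pair the libraries by any label.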

Additional observations from a re-analysis of the deposited data

Results flagged for a closer look

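In 105 groups of 4 to 6 libraries, 12 levels had 1 library far from the others by Dixon's criterion, which chance alone passes in about 5% of groups. Female pool 2 had the highest Gabrd in cluster 7 (65.5 CPM, median 27.6), in cluster 8 (33.8 CPM, median 10.2, from 9 UMIs in that library) and in oligodendrocyte-like nuclei (28.4 CPM, median 5.77, from 5 UMIs). Male pool 3 had the lowest Gabrg3 in D2 MSN-like nuclei (2679.9 CPM, median 3389), in cluster 4 (1805 CPM, median 2797) and in cluster 7 (4202 CPM, median 5881). Female pool 3 had the highest Gabra3 in microglia-like nuclei (39.1 CPM, 7 UMIs), and the highest Gabrg1 in microglia-like (94.9 CPM, 17 UMIs) and oligodendrocyte-like nuclei (61.0 CPM, 147 UMIs). Gabra5 in D2 MSN-like nuclei was highest in female pool 1 (73.3 CPM, median 42.7), the library in which D1 and D2 MSN-like nuclei did not differ. Gabra3 was lowest in male pool 1 in cluster 9 (134 CPM, median 170) and in female pool 1 in cluster 7 (135 CPM, median 146).

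Of 56 class comparisons of members set side by side for the sexes, 1 had opposite signs in all libraries of each sex. Gabrd in cholinergic-like nuclei against the mean of Sst/Npy interneuron-like nuclei and the Kit cluster had a mean log2 difference of -1.17 in females and 0.49 in males, over 4 libraries. This difference between the sexes was not tested, and Gabrd had 17 UMIs in cholinergic-like nuclei.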

How the results depend on the processing

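No log2 fold change that was called changed sign under any alternative run. Of 881 refitted log2 fold changes between classes, 37 lost their call and 14 gained one, and of 967 between females and males 7 lost and 3 gained theirs. Among the levels 34 of 1337 moved beyond 1 SD, and 195 of 252 shares moved with the depth of thinning. The number of members called between D1 and D2 MSN-like nuclei (1) was 0 in DESeq2, without the library block and within label set B, 4 with only the classes compared, and 0 to 1 when each library was left out. For cluster 7 (5) it was 2 in DESeq2, 1 without the library block and 3 to 5 with a library left out, the lowest without male pool 1. For cholinergic-like nuclei (1) it was 0 without the library block, 3 with only the classes compared, and 1 to 2 with a library left out. Between females and males (1) it was 0 in DESeq2, at the 2% mitochondrial limit (where the Drd3 cluster had too few nuclei in a library), at Leiden resolution 0.5 and without a covariate, and 0 to 3 with a library left out. Without female pool 1 the 3 were Gabra2 (log2 1.88), Gabra4 (1.61) and Gabrg3 (2.10) in oligodendrocyte-like nuclei. The causes of these changes were not tested, beyond the smaller standard errors where only the compared classes were fitted.

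The replicate numbers are shared by the sexes, but same-numbered libraries did not deviate together over 13361 genes (r = -0.77, 0.25 and -0.69 for numbers 1 to 3). No library correlated best with its own number, so the numbers do not show pairing. The highest r was 0.87, between female pool 3 and male pool 1, the libraries of set A. With a replicate block 0 members were called between females and males. At Leiden resolution 0.5 no cluster met the rule for eccentric MSN-like nuclei, by which cluster 7 was found, so that comparison has no value there, and the comparisons with Drd3 MSN-like and Pvalb/Pthlh interneuron-like nuclei were not run under those names. Depth limits Gabrd, Gabra5 and the glial classes most.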

Other observations

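Patterns were compared over 21 classes and clusters, which share their libraries. Clusters 3, 11 and 17, with markers of more than 1 list, are among the 21. For each member the genes with the most similar pattern were taken from 12201 genes by the Pearson correlation of log2(mean CPM + 1). They were Kcnab1 (r = 0.91), Ngef (0.91) and Tiam2 (0.90) for Gabra4, Hrh3 (0.86), Spata2L (0.84) and Necab2 (0.83) for Gabrd, and Gdpd2 (0.84), Smo (0.81) and Adamts12 (0.81) for Gabrg1. Gabrg3 was nearest to Ccdc148 (0.96), Frmpd4 (0.89) and Cacnb2 (0.89), Gabra5 to Frmpd4 (0.89), Ppil6 (0.89) and Maats1 (0.88), Gabra2 to Abi2 (0.89) and Trim9 (0.89), and Gabra3 to Ralgps2 (0.95), Gdap1l1 (0.94) and Rit2 (0.94). Among the members themselves r was 0.82 for Gabra5 with Gabrg3, 0.77 for Gabra4 with Gabrd, 0.77 for Gabra2 with Gabra4 and -0.48 for Gabrg1 with Gabrd.

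Glutamatergic-like nuclei, found in the 2 set A libraries, had 386 and 358 CPM of Gabra4, 339 and 309 of Gabra2 and 15.8 and 22.2 of Gabrd in female pool 3 and male pool 1.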
